A study of Mus musculus with 6 samples.

Results

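The genes described here are 32 genes of glycolysis and of the response to low oxygen, the latter centred on the hypoxia-inducible factors (HIF). They were chosen by name and not by their values. All 32 had at least 1 array probe whose RefSeq accession belongs to the gene, 54 probes in all, out of 21154 genes that could be named on the array. Ero1l is listed as Ero1a in the RefSeq table. Of the 32, 31 gave a signal well above background throughout 1 or both groups and were tested among 15319 genes; erythropoietin (Epo) did not.

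RNA of whole kidneys from male C57BL/6J mice was measured on single-colour Agilent arrays, 1 array per animal. Of the 6 animals, 3 were labelled control and 3 carried a conditional knockout written iNampt in the labels. Nampt encodes the rate-limiting enzyme of NAD salvage, and the series title places the study in the renal proximal tubule and in diabetic nephropathy. The labels name no diabetic treatment; the animals' ages, the promoter driving the recombinase and the alleles that the controls carry are not given in the sources used here. The question put to these genes is whether their transcripts differ between kidneys with and without the deletion. Values are normalised log2 signals, that is log2 of the processed intensity minus the 75th percentile of the array, so that 0 is the brightness of that percentile and a difference of 1 is a doubling. A level belongs to its probe, and levels of different genes are not set against each other.

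Glycolysis turns glucose into pyruvate through a chain of cytosolic enzymes and needs NAD at the step of glyceraldehyde-3-phosphate dehydrogenase, where lactate dehydrogenase can return it. In the kidney, the healthy proximal tubule mainly burns fatty acids and makes glucose, while the more distal segments rely more on glycolysis. When oxygen falls, prolyl hydroxylases stop marking HIF alpha subunits for destruction by the von Hippel-Lindau protein, and the stabilised factor raises genes of glycolysis, blood vessel growth, pH control and collagen modification. Both arms therefore meet in the same list of genes, since several glycolytic enzymes are themselves HIF targets.

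HIF binds the core letters ACGTG or GCGTG. These were searched on both strands of the RefSeq windows from 250 bases before to 50 bases after a start site (GRCm38.p6), for which 30 of the 32 genes had an entry and Ndrg1 and Epas1 had none. Of 43 windows of these genes, 34 (79.1%) held at least 1 match, against 43.8% of all 32851 windows; the windows were not matched for base composition. A match is a run of letters and not a measured binding site, and overlapping matches were merged into 1 stretch. The windows of the pair of genes with the smallest p-values, Car9 and P4ha2, and of Ldha, whose window held the most stretches of these genes (5), are shown 5′ to 3′ on the strand of the gene, with every match in capitals. They lie at chr4:43506776-43507075, chr11:54100674-54100973 and chr7:46845554-46845853, all on the plus strand, and hold 1, 4 and 5 stretches.
Car9: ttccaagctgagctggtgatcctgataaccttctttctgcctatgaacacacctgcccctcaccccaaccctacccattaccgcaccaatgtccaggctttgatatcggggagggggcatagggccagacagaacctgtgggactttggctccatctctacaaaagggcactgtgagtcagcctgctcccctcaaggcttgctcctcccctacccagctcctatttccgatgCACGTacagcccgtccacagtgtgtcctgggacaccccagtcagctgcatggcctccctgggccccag
P4ha2: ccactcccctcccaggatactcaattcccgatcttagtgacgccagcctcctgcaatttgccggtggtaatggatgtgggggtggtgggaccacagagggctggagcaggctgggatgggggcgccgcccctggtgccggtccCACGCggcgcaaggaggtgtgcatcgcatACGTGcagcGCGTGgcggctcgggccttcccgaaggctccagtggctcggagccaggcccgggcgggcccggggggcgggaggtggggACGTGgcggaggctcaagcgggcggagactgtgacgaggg
Ldha: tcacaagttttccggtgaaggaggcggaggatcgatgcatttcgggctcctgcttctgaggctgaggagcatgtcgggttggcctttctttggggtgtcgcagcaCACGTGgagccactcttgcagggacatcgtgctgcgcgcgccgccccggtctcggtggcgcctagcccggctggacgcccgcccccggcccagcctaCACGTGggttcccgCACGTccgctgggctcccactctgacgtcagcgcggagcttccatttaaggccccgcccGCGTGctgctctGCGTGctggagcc

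As a check of the labels, Nampt lay at 2.78, 2.59 and 2.65 in controls 1, 2 and 3 and at 1.804, 1.502 and 1.531 in the knockouts, and every knockout was below every control. It fell by 1.06 (log2) with an SE of 0.10 and a limma adjusted p of 0.0432, and the adjusted p ran from 0.00757 to 0.184 over 17 other settings. The deleted exons are not given in the sources used here; a probe outside them would not check the deletion. The replicates are animals as the labels number them, and nothing further on their origin is given. All 12 markers of the proximal tubule, the main cell type of the kidney cortex, were above background and tested. Arrays shared a slide: knockout 1 was placed beside the controls, in row 1, whereas row 2 carried the other knockouts (2 and 3). Values within the first row therefore compare knockout 1 alone with the controls, as does a fit that takes the row as a block. Arrays correlated with Pearson r between 0.994 and 0.997 across 30031 probes, which are not independent replicates.

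None of the 31 tested genes passed a Benjamini-Hochberg adjusted p of 0.05 over all genes by limma, where 0.17% of all genes tested did (26 of 15319; 0.104% higher and 0.0653% lower). At an unadjusted p under 0.05 there were 2 of the 31, where 12.8% of all genes reached that level. Of these, 1 was higher (Car9), beside 6.68% of all genes, and 1 lower (P4ha2), beside 6.12%. The groups did not overlap for 5 of the 31 (16.1%), against 19.5% of all genes. The knockouts were above for Car9, beside 9.03% of all genes, and below for Pgk1, Vegfa, Bnip3 and P4ha2, beside 10.5%. The median difference was -0.029, beside -0.0077 over all genes, and 19 of 31 differences (61.3%) were below 0, beside 52.9% of all genes. Taken over the 31 genes, these shares lie near or under those of the whole array for calls and for separation. By role, the 9 tested HIF targets were above the whole array for separation (44.4%). The absence of a call does not show equal expression, but the intervals were narrow: for 26 of the 31 genes the 95% interval of the difference lay within 1.5-fold either way. The others were Hk2, Pfkfb3, Slc16a3, Egln1 and Car9.

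**Figure D1:**
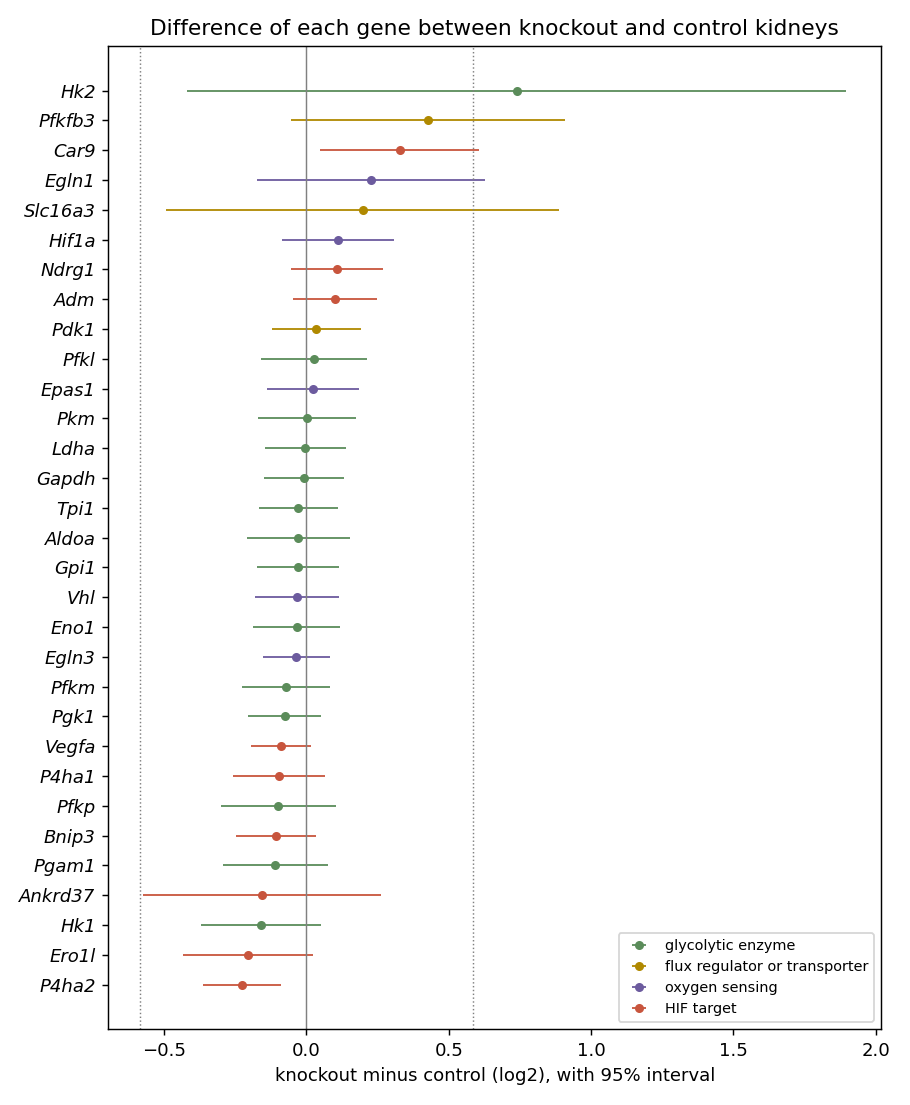
Difference between knockout and control kidneys (log2, horizontal axis) for each of the 31 tested genes, ordered by size and coloured by role; bars are limma's 95% intervals and dotted lines mark 1.5-fold. Most intervals include 0 and stay within the dotted lines; those of Car9 and P4ha2 lie on opposite sides of 0, and the widest is that of Hk2.

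Of the 14 glycolytic enzymes, 0 passed by limma (beside 0.17% of all genes) and 0 had an unadjusted p under 0.05 (beside 12.8%). Of these differences, 11 (78.6%) lay below 0, beside 52.9% of all genes, and their median was -0.029, with a range from -0.16 (Hk1) to 0.74 (Hk2). Gapdh, which oxidises glyceraldehyde-3-phosphate with NAD, lay at 8.99, 9.02 and 9.15 in the controls and 9.04, 9.06 and 9.04 in the knockouts. The knockouts sat inside the control range, and the difference was -0.0085 ± 0.058 (SE), with a 95% interval from -0.15 to 0.13. Ldha, the lactate dehydrogenase subunit that makes lactate from pyruvate, lay at 8.004, 7.94 and 8.09 in the controls and 7.95, 8.06 and 8.01 in the knockouts, a difference of -0.0037 ± 0.059. The signals of both genes thus overlapped fully, and their signs turned in 2 and 6 of the 17 other settings.

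Upstream in the chain, Hk1, the hexokinase that traps glucose as its phosphate, lay at 4.61, 4.70 and 4.42 in the controls and 4.47, 4.33 and 4.45 in the knockouts. Control 3 was within the knockout range, and the difference was -0.16 ± 0.086 (adjusted p = 0.513). Its second probe was at -0.083. Gpi1, which isomerises glucose-6-phosphate, was at -0.029 ± 0.058, and Aldoa, which splits fructose bisphosphate, at -0.029 ± 0.074. The triosephosphate isomerase gene Tpi1 was at -0.029 ± 0.057. The phosphofructokinase genes, which encode the committed step, lay at 0.026 ± 0.076 for Pfkl, -0.099 ± 0.082 for Pfkp and -0.072 ± 0.063 for Pfkm. The groups overlapped for all of these genes.

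Further down the chain, Pgk1, the phosphoglycerate kinase that makes ATP, was the 1 of 14 enzymes whose groups separated (7.14%, beside 19.5% of all genes). It lay at 6.814, 6.838 and 6.933 in the controls and 6.748, 6.808 and 6.800 in the knockouts, a gap between the nearest animals far smaller than the spread of the controls. The difference was -0.076 ± 0.052 (adjusted p = 0.620). Pgam1, the mutase that follows it, lay at 6.34, 6.44 and 6.54 in the controls and 6.23, 6.40 and 6.36 in the knockouts, a difference of -0.11 ± 0.075. Eno1, the enolase, was at -0.035 ± 0.063, and Pkm, the pyruvate kinase that closes the chain, at 0.0019 ± 0.070. Several of these enzymes have many processed pseudogenes in the mouse, and hybridisation of such copies was not tested.

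Control 3 was the highest of the 6 arrays for 9 of the 14 enzymes and the lowest for 0. Others ran differently: Hk1 was lowest of the controls there, Pfkl, Pfkp and Pkm were highest in control 2, and Hk2 was the highest of the controls in control 1. The median enzyme stood 0.078 above the control mean in control 3 and at -0.065 and -0.019 in controls 1 and 2, while the knockouts lay at -0.033, -0.043 and -0.027. The median of all genes was 0.030 in control 3, and that of the 12 proximal tubule markers 0.095. Without control 3, 7 of the 14 enzymes were below 0 and their median was 0.0074. With all arrays kept, 9 were below 0 with quantile normalisation (median -0.015) and 8 with normexp and quantile normalisation (median -0.0068). The part of tubule content in this was not tested; in bulk tissue, fewer cells of a type and less RNA per cell cannot be told apart.

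Hk2, the inducible hexokinase, differed from the other enzymes in its spread. Hk2 lay at -4.11, -4.77 and -4.41 in the controls and -4.50, -3.92 and -2.66 in the knockouts. The probe was dim, with every value far below the scaling percentile, though well above background on all 6 arrays. That percentile was 781 to 876 units, and the lowest signal called above background was 18.5 to 32.2 units. The part of low signal in the spread of Hk2 was not tested. Knockout 3 stood far above the rest, and knockout 1 lay among the controls. The difference was 0.74 ± 0.47 (adjusted p = 0.588), 0.22 without knockout 3 and -0.070 within the first slide row. It was 0.24 with normexp and quantile normalisation, 1.14 without knockout 1 and 1.33 with array weights (adjusted p = 0.148). Its 95% interval ran from -0.42 to 1.90, the widest of the 31 genes. The 6 adipocyte markers had a median deviation from the control mean of 0.51, -0.63 and 0.16 in controls 1, 2 and 3. In knockouts 1, 2 and 3 it was -1.51, -2.24 and 0.76. Plin1, Lipe and Cidec were highest in knockout 3, and Retn, Adipoq and Cfd in control 1. The part of adipocyte content in the values of Hk2, Pfkfb3 and Slc16a3 was not tested.

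Genes that steer flux into or out of glycolysis were above 0 in 3 of 3 cases, with none passing. Pfkfb3, which makes the activator of phosphofructokinase, lay at 0.95, 1.18 and 0.70 in the controls and 1.25, 1.12 and 1.74 in the knockouts. Knockout 2 fell below control 2, and knockout 3 was again the highest array. The difference was 0.43 ± 0.20 (adjusted p = 0.441) and 0.24 without knockout 3, and a second, dimmer probe gave 0.26 ± 0.24. Slc16a3, a lactate exporter, lay at -1.63, -1.11 and -2.06 in the controls and -1.72, -1.47 and -1.02 in the knockouts. The controls alone spanned most of the range of this gene, and the difference of 0.20 ± 0.28 became -0.12 within the first slide row and -0.031 without control 3. Pdk1, a kinase that inhibits pyruvate dehydrogenase, was at 0.035 ± 0.064 with overlapping groups.

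**Figure D2:**
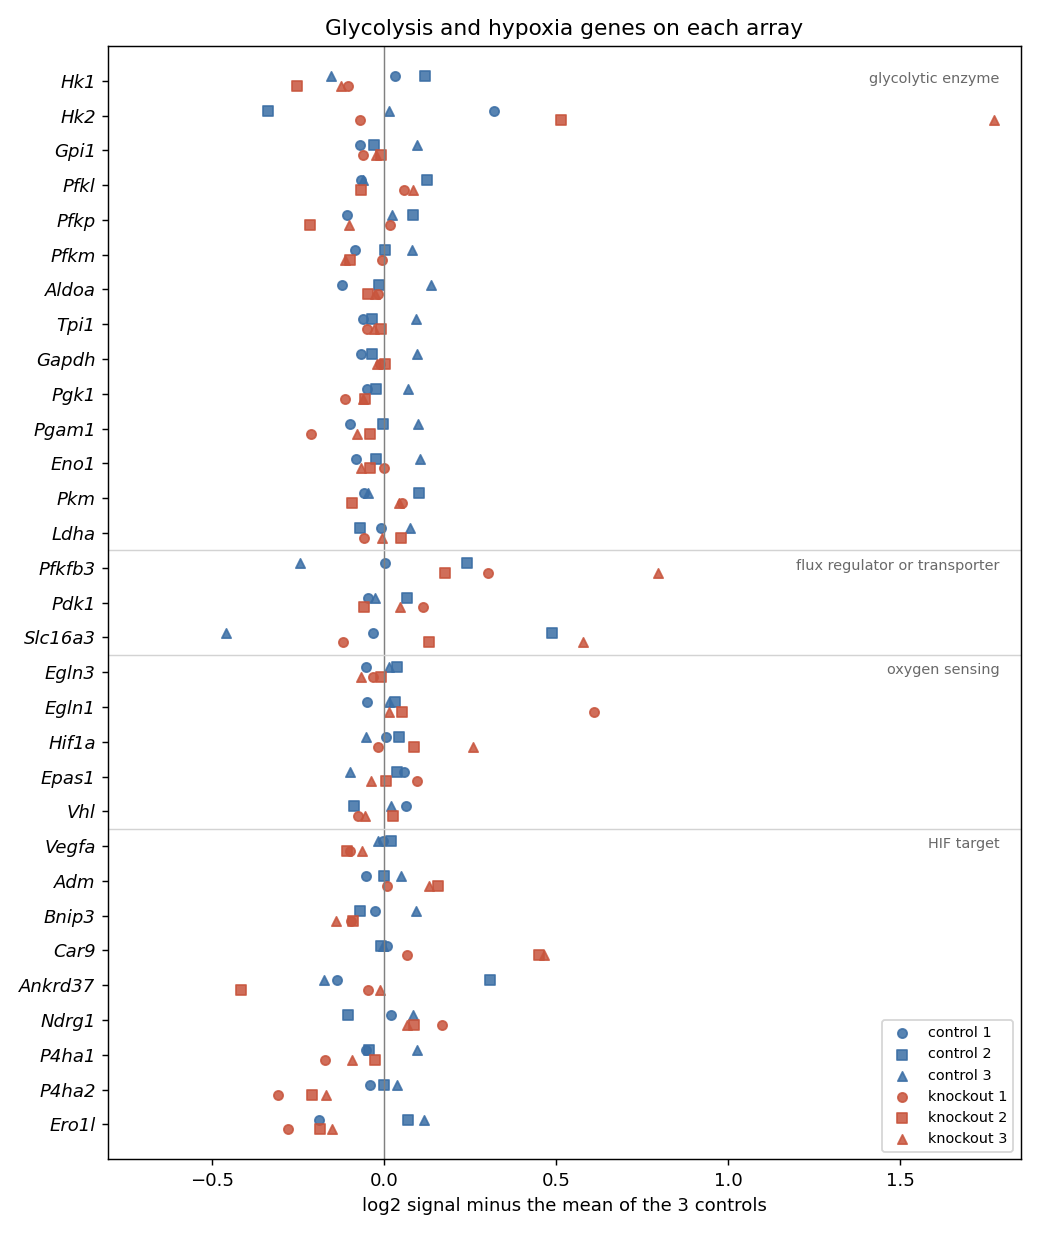
Log2 signal minus the mean of the 3 controls (horizontal axis) for each of the 31 tested genes, grouped by role; blue marks are controls, red marks knockouts, and the shape gives the animal's number. Hk2, Pfkfb3 and Slc16a3 spread widely with knockout 3 on the right, Egln1 has knockout 1 apart, and Car9 has knockouts 2 and 3 apart.

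The oxygen sensing genes did not pass either by limma (0 of 5, beside 0.17% of all genes). At an unadjusted p under 0.05 there were 0 of the 5, beside 12.8% of all genes. The groups overlapped for all 5, where 19.5% of all genes did not overlap. Hif1a, the widely expressed HIF alpha subunit, lay at 0.93, 0.96 and 0.865 in the controls and 0.90, 1.005 and 1.18 in the knockouts, a difference of 0.11 ± 0.080 with knockout 3 highest; it was at -0.016 within the first slide row. Epas1, which encodes the HIF alpha subunit of endothelial and interstitial cells, was at 0.022 ± 0.066 by the probe used and at -0.055 and -0.079 by its others. Vhl, which encodes the von Hippel-Lindau protein, was at -0.033 ± 0.061. HIF alpha is regulated mainly as a protein, which arrays do not measure. Hif1a and Egln3 lie on chromosome 12, as Nampt does, and their distances from Nampt were not examined.

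The prolyl hydroxylase genes gave the clearest case of a single animal. Egln1, the main oxygen-sensing hydroxylase, lay at -1.563, -1.483 and -1.498 in the controls and -0.903, -1.461 and -1.5004 in the knockouts. Knockout 1 stood apart, and knockout 2 lay just above the controls and knockout 3 among them. The difference was 0.23 ± 0.16 (adjusted p = 0.636), 0.034 without knockout 1 and 0.61 within the first slide row (adjusted p = 0.0761 with the row as a block). Egln3, a hydroxylase that HIF itself induces, was at -0.036 ± 0.048, with knockout 1 at -1.24 between the controls.

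Among the HIF targets outside glycolysis, 9 of 10 were tested and 0 passed by limma, beside 0.17% of all genes. Their median difference was -0.096. They did not share a direction, with 3 above 0 and 6 below (66.7%, beside 52.9% of all genes). At an unadjusted p under 0.05 (limma), 1 was higher and 1 lower, beside 6.68% and 6.12% of all genes. The groups did not overlap for 44.4% of the 9, beside 19.5% of all genes. The knockouts were above for 1 and below for 3, beside 9.03% and 10.5%. Car9, a membrane carbonic anhydrase, had the highest difference of the 9. It lay at 1.143, 1.127 and 1.130 in the controls and at 1.200, 1.585 and 1.598 in the knockouts. The SD of the controls was 0.0084 (n = 3), knockout 1 lay just above them, and knockouts 2 and 3 well above. The difference was 0.33 ± 0.11 (95% interval 0.048 to 0.61; adjusted p = 0.334). Without knockout 1 it was 0.46 and passed by limma (adjusted p = 0.0445), where 95 of 15354 genes did. Within the first slide row it was 0.066 (adjusted p = 0.802 with the row as a block).

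The animals with high Car9 were those of the second slide row, and some other signals moved with them. The 7 tested red cell markers had a median of -0.021 in knockout 1, -0.94 in knockout 2 and -1.07 in knockout 3, and their summed log2 level was 9.12 to 9.45 in the controls and 9.27, 8.44 and 8.30 in knockouts 1, 2 and 3. Hba-a1, Hba-a2, Hbb-bt and Alas2 had knockout 1 among the controls and knockouts 2 and 3 below them. Hbb-b2 and Hbb-b1 were below every control in knockout 1 as well (4.28 and 2.54). Slc4a1 was at 0.054 with overlapping groups. The lowest signal called above background was 18.5 to 20.9 units in the first row and 29.6 and 32.2 in the second. The part of slide row or blood content in the Car9 values was not tested.

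P4ha2, a collagen prolyl hydroxylase subunit, had the smallest p of the 31 genes. It lay at 2.60, 2.64 and 2.68 in the controls and 2.33, 2.43 and 2.47 in the knockouts, and every knockout was below every control. The difference was -0.23 ± 0.056 (95% interval -0.36 to -0.090; unadjusted p = 0.00683; adjusted p = 0.226). It kept its sign in all 17 other settings, from -0.31 to -0.19, and its adjusted p there ran from 0.0744 to 0.482. Its paralogue P4ha1 was at -0.096 ± 0.066 with overlapping groups, and its second probe at -4.6e-05.

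The differences of the other targets ran from -0.20 (Ero1l) to 0.11 (Ndrg1). Vegfa, the vascular endothelial growth factor, lay at 4.076, 4.100 and 4.062 in the controls and 3.980, 3.971 and 4.018 in the knockouts. The groups separated by this probe and by its second probe, with differences of -0.090 ± 0.043 and -0.16 ± 0.066, and the first had an adjusted p of 0.462. Bnip3, a mitophagy receptor, lay at 5.775, 5.732 and 5.893 in the controls and 5.704, 5.712 and 5.662 in the knockouts, a difference of -0.11 ± 0.058. Its other 2 probes gave -0.096 and -0.093, and the groups overlapped by each of them. Ero1l, which forms disulphides in the endoplasmic reticulum, lay at -1.55, -1.29 and -1.25 in the controls and -1.64, -1.55 and -1.51 in the knockouts, a difference of -0.20 ± 0.093 (adjusted p = 0.437). Control 1 lay within the knockout range. The Ero1l difference kept its sign in all 17 other settings, from -0.30 to -0.15.

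Adm, the vasodilator adrenomedullin, was at 0.10 ± 0.060 and Ndrg1 at 0.11 ± 0.066. Ankrd37 was at -0.16 ± 0.17, with control 2 at -1.06 and knockout 2 at -1.78 as its extremes. It was -0.0020 without control 2, -0.027 without knockout 2, -0.044 within the first slide row and -0.34 with array weights. The groups overlapped for these genes. Epo, the hormone that interstitial cells of the kidney release in hypoxia, was not well above background on any of the 6 arrays, so it has no difference here.

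**Figure D3:**
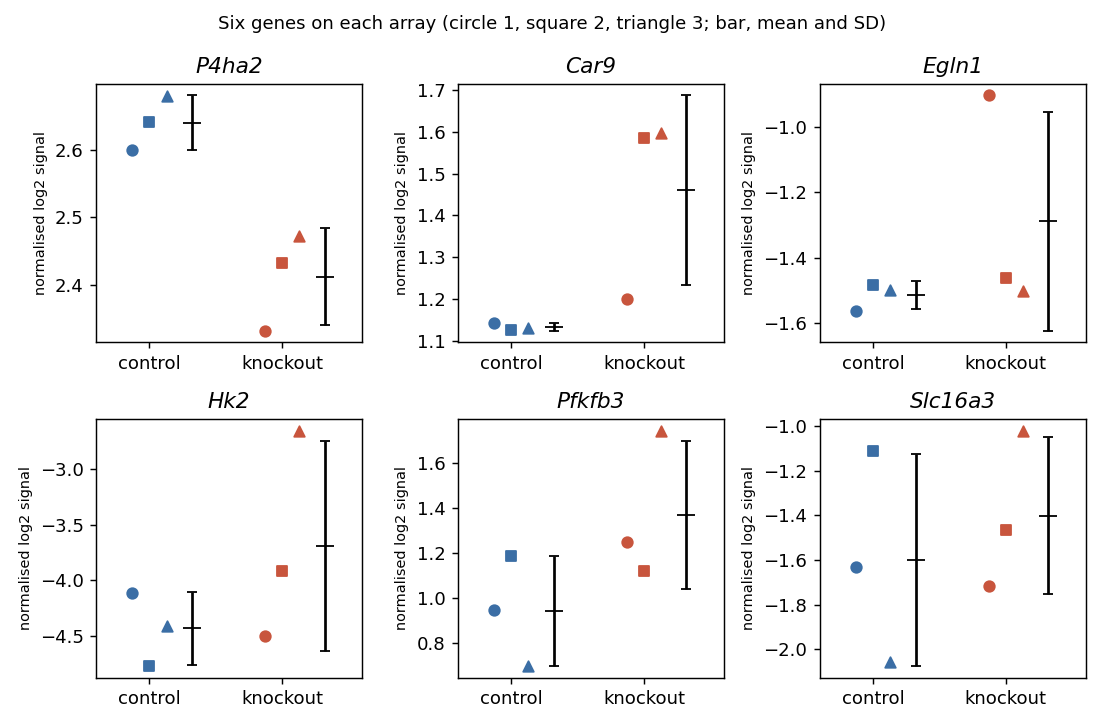
Normalised log2 signal (vertical axis) of 6 genes on each array, controls in blue and knockouts in red, with the mean and SD (n = 3) beside each group; axes do not start at 0. The groups separate for P4ha2 and Car9, and Egln1, Hk2 and Pfkfb3 each have 1 knockout apart.

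Where a gene had several probes, they could be set against each other within the gene. For 8 of the 13 such genes (35 probes) all probes had the same sign, and for 5 they did not. The 5 were Gpi1, Gapdh, Ldha, Egln3 and Epas1, and among them the difference farthest from 0 was the -0.079 of Epas1. Over the 7 Gapdh probes the differences ran from -0.039 to 0.030.

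**Figure D4:**
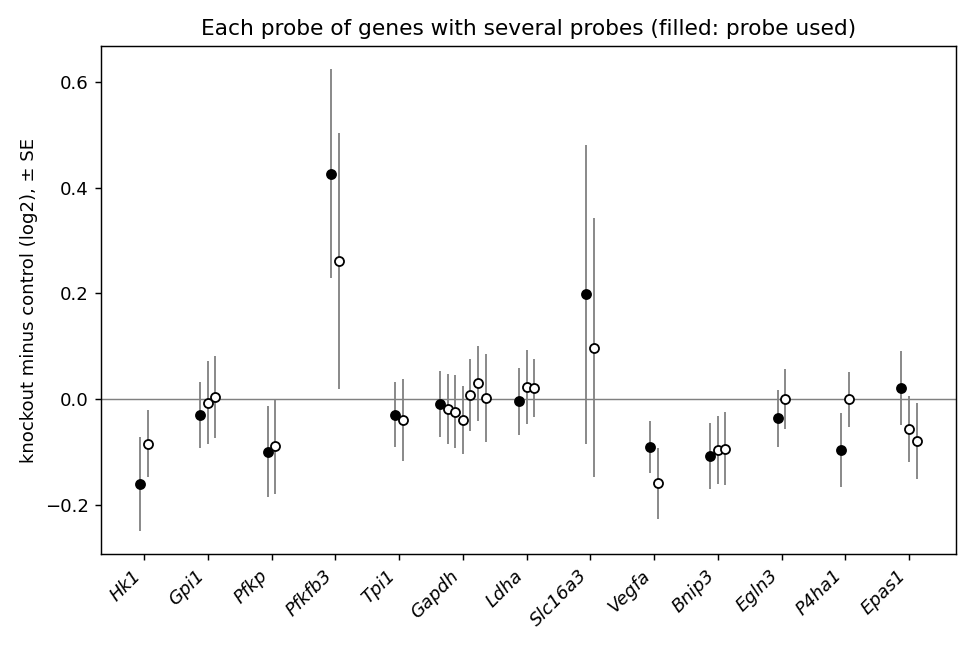
Difference between knockout and control (log2, vertical axis, ± limma's SE) for each probe of the 13 genes with several probes; filled points are the probes used. The error bars of probes of the same gene overlap, and both Pfkfb3 and both Slc16a3 probes lie above 0.

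A wider list of 47 genes of glucose handling was examined beside them. All 47 were tested, 0 passed by limma, 3 were higher (beside 6.68% of all genes) and 1 lower (beside 6.12%) at an unadjusted p under 0.05, and the median difference was 0.0032. The groups did not overlap for 6 (12.8%), beside 19.5% of all genes. Pfkfb4, another enzyme that makes the activator of phosphofructokinase, lay at 0.72, 0.67 and 0.62 in the controls and 0.87, 1.01 and 0.94 in the knockouts, all above the controls. The difference was 0.27 ± 0.058 (adjusted p = 0.190). Slc2a5, the fructose transporter of the apical proximal tubule, lay at 4.10, 4.20 and 4.37 in the controls and 4.489, 4.601 and 4.528 in the knockouts, again without overlap, with a difference of 0.32 ± 0.081 (adjusted p = 0.237). Pfkfb1 was at 0.36 ± 0.13, Tigar, which removes the same activator, at -0.13 ± 0.049, the lactate carrier gene Slc16a1 at -0.17 ± 0.082 and the pyruvate dehydrogenase phosphatase gene Pdp1 at 0.28 ± 0.13. With array weights Pfkfb4 and Slc2a5 passed by limma (adjusted p = 0.0409 and 0.0438), where 338 of 15319 genes did.

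A wider list of HIF targets and partners held 52 genes, of which 48 were tested and 0 passed by limma. At an unadjusted p under 0.05, 7 were higher and 3 lower, beside 6.68% and 6.12% of all genes. The groups did not overlap for 16 (33.3%), beside 19.5% of all genes, 9 with the knockouts above and 7 below (beside 9.03% and 10.5%), and the median difference was 0.014. Cxcr4, a chemokine receptor of leukocytes and other cells, lay at -3.22, -3.56 and -3.74 in the controls and -2.77, -2.56 and -2.67 in the knockouts. All knockouts were above all controls, by 0.84 ± 0.14 (adjusted p = 0.134 by limma). With array weights its adjusted p was 0.0214, where 338 of 15319 genes passed.

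Other HIF-linked genes differed in either direction without passing. Ak4, a mitochondrial adenylate kinase, lay at 5.86, 5.77 and 5.92 in the controls and 5.49, 5.31 and 5.51 in the knockouts, a difference of -0.41 ± 0.075 (adjusted p = 0.151) with no overlap. Hmox1, haem oxygenase, was at -0.35 ± 0.084, Stc2 at 0.26 ± 0.068 and the ferroxidase gene Cp at 0.50 ± 0.13. Of 9 macrophage markers, 9 were above 0, where 52.9% of all genes were below, and 6 had the knockouts above without overlap, beside 9.03% of all genes, with a summed log2 level of 6.27 to 6.45 in the controls and 6.60 to 6.70 in the knockouts. All 9 were tested. Of 7 neutrophil markers, 5 were tested, with a summed level of 2.47 to 2.90 in the controls and -0.0036 to 1.28 in the knockouts, Ngp being too dim and Ly6g having no named probe. That sum is set mainly by S100a8 and S100a9 (-2.39 and -2.34), and Retnlg was at -1.16. Mpo (0.22) and Camp (0.11) lay above 0 with overlapping groups. The part of these cells in the Cxcr4 and Hmox1 values was not tested.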

How the data were processed

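Total RNA was hybridised as Cy3-labelled material to SurePrint G3 Mouse arrays, per the labels. The authors obtained the intensity values with Agilent Feature Extraction (version 10.7.1.1 in the file headers); they are background-subtracted per array and unscaled between arrays. Spot flags are as deposited. The value table deposited by the authors holds a linear ratio. For at least 99.993% of the 13934 to 13936 probes compared on an array it equals that intensity over a constant, within 1%.

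Spots marked as outliers were dropped (92 to 151 an array), log2 was taken, spots of a probe were averaged and the array's 75th percentile was subtracted. No spot was saturated, and 57.3% to 63.3% were well above background. Accessions were named through the GRCm38.p6 RefSeq table (28026 of 55681 probes); the array's own build is mm9, per the file headers. A probe was kept if every array of the controls, or every array of the knockouts, was well above background, the brightest kept probe stood for its gene, and genes with a missing array were dropped. limma 3.58.1 in R 4.3.3 (lmFit, eBayes) compared the groups with Benjamini-Hochberg adjustment over all genes. The fit was tested on simulated data. With 3 against 3, an exact permutation test of 1 gene cannot go below p = 0.1. All 32 genes are named, with up to 6 genes of smallest p from each wider list, less 1 that is not reported here. The genes, lists and tests were chosen with earlier results of these data known. Python 3.11.15, pandas 2.3.3 and matplotlib 3.10.9 were used. The alternatives tried are in the closing section.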

Additional observations from a re-analysis of the deposited data

How the results depend on the processing

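Over 17 other settings, 0 of the 31 genes passed by limma, except Car9 without knockout 1. At an unadjusted p under 0.05 (limma) between 1 and 9 of the 31 did. The 1 was without knockout 3, beside 1383 of 15355 genes, and the 9 were with array weights, beside 3604 of 15319 genes. Leaving out single arrays gave 0 to 1 genes passing here, 0 to 1 in the wider lists, 0 to 95 among all genes (limma: 95 without knockout 1, 1 without knockout 2 or 3, and 0 without control 2 or 3, where 1443 and 1563 had an unadjusted p under 0.05), and a median difference from -0.058 (without control 1, 10 genes above 0 and 21 below) to -0.018. Among all genes 11 passed with quantile normalisation, 77 with no filter, 57 with a trended and robust variance, 338 with array weights and 16 with slide row as a block; array weights also gave 3 passing in the wider lists. The labels do not say whether the replicate numbers pair the animals. Correlations of deviations were 0.10, -0.097 and -0.027 for numbers 1, 2 and 3, and not every animal correlated best with its own number. With 3 animals in each group, these correlations can neither show nor exclude pairing. With a replicate block 0 genes passed by limma, with 1634 at an unadjusted p under 0.05. The median of all genes moved by less than 0.1 in every setting.

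Signs turned for 15 of the 31 genes, none called in either fit. With quantile normalisation Gpi1 was at 0.0049 and Ldha at 0.0053; with normexp and quantile normalisation Aldoa at 0.00027, Eno1 at 0.0061 and Ldha at 0.033; scaled by the median of detected probes Pkm at -0.0017; averaging all probes of a gene, Ldha at 0.014 and Epas1 at -0.037. With array weights Pfkl was at -0.047, Tpi1 at 0.00099, Gapdh at 0.015, Pkm at -0.064, Ldha at 0.051, Pdk1 at -0.020, Epas1 at -0.033 and Vhl at 0.025. With slide row as a block Hk2 was at -0.070, Pfkp at 0.019, Slc16a3 at -0.12 and Hif1a at -0.016. Leaving out single arrays, Pfkl ran from -0.0064 to 0.089, Pkm from -0.026 to 0.053, Gpi1 from -0.063 to 0.018, Aldoa from -0.090 to 0.039, Tpi1 from -0.058 to 0.019, Gapdh from -0.041 to 0.041, Eno1 from -0.076 to 0.018, Ldha from -0.038 to 0.034, Slc16a3 from -0.031 to 0.44, Epas1 from -0.028 to 0.051 and Pdk1 from -0.0055 to 0.081. The causes were not tested. The number of animals limits the precision. The normexp setting ran on median spot signals.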
